A study of Rattus norvegicus with 8 samples.

Results

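The genes described here are 10 genes of the major histocompatibility complex (MHC) class II family of the rat, and not all of that family. They are the 4 classical chains RT1-Ba, RT1-Bb, RT1-Da and RT1-Db1, the 4 peptide-loading chains RT1-DMa, RT1-DMb, RT1-DOa and RT1-DOb, the invariant chain Cd74 and the class II transactivator Ciita. They were taken by name as a family, and each was the row of the deposited table whose only gene symbol was the member's own. The table held 8793 transcript clusters (1 cluster gathers the probes of 1 gene), of which 7603 had a single gene symbol. All 10 members had a row, and each had exactly 1. The authors deposited the clusters that they called detected, by a rule not given in the sources used here, so that a gene which was detected through its MBP-EAE values alone would also be in the table.

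Spinal cord RNA of 8 female Lewis rats was measured on Affymetrix Rat Exon 1.0 ST arrays, with 1 array for each rat. The 4 rats with MBP-EAE (rats 217, 218, 219 and 241) had been injected under the skin at the tail base with myelin basic protein (MBP, 50 µg) in incomplete Freund's adjuvant that contained heat-killed Mycobacterium butyricum. The 4 healthy control rats (193, 194, 195 and 196) were untreated and of the same age, and the labels call them littermates without giving the litter of any rat. Cords were taken on day 13 after injection, when disease was at its peak or in very early resolution. The labels give an age of 16 weeks and MBP from guinea pig brain, whereas the paper's methods give younger rats and a recombinant protein. Controls received neither MBP nor adjuvant, so that effects of the protein, of the adjuvant and of the disease cannot be told apart.

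Experimental autoimmune encephalomyelitis (EAE) is an inflammatory disease of the central nervous system that is driven by CD4+ T cells, which see their antigen only as a peptide held by an MHC class II molecule. In the rat, RT1-B and RT1-D are the classical class II molecules, each made of an alpha and a beta chain and related to human HLA-DQ and HLA-DR. New class II molecules assemble on the invariant chain, which fills the peptide groove and leads them to endosomes, where proteases trim it to a short peptide called CLIP. RT1-DM then helps exchange CLIP for other peptides, and RT1-DO, known chiefly from B cells and some dendritic cells, restrains DM. The transactivator Ciita binds no DNA itself. It sits on proteins that bind the X and Y boxes of class II promoters, among them RFX, CREB and NF-Y, and interferon gamma is a known inducer of its gene. In healthy nervous tissue, microglia carry little class II, and in inflammation both microglia and incoming myeloid cells can carry it.

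The promoters are shown first because the X and Y boxes are where Ciita is known to act on class II genes. RefSeq promoters of the assembly GRCr8, each 300 bases long from 250 before to 50 after the start site, were found for 8 of the 10 members. RT1-DMb and Ciita were not among them. The letters of both boxes were chosen after these promoters had been read, so that the matches describe these sequences and test nothing. Capitals mark a match to the X box letters, ACNGATG with N for any base, and a match to the Y box core, which is TGATTGG. The Y box core holds the inverted CCAAT box ATTGG. In Cd74, where neither match was found, capitals mark a CCAAT box that reads in the forward direction. A promoter without a match to the X box letters may still hold an X box spelled otherwise, which was not searched for. Each line gives 1 stretch 5′ to 3′ along the gene's own strand. GRCr8 is an assembly of the Brown Norway strain, and the Lewis rat carries another RT1 haplotype, so that bases may differ in the rats measured.
RT1-Da (chr20:4515319-4515385, plus strand): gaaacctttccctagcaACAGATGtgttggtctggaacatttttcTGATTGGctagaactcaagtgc
RT1-Db1 (chr20:4560223-4560289, minus strand): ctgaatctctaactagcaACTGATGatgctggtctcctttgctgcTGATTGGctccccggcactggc
RT1-Ba (chr20:4576967-4577033, plus strand): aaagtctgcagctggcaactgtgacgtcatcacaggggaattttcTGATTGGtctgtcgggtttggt
RT1-Bb (chr20:4604160-4604226, minus strand): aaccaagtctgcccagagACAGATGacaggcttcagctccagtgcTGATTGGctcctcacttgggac
RT1-DMa (chr20:4712380-4712446, minus strand): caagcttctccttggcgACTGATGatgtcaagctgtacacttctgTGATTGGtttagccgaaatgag
RT1-DOb (chr20:4627587-4627653, minus strand): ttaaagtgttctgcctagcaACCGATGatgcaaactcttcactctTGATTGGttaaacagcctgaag
RT1-DOa (chr20:4758511-4758577, minus strand): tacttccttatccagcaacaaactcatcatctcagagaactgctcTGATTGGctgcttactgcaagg
Cd74 (chr18:56526972-56527036, plus strand): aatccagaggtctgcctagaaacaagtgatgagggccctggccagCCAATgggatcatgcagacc

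The Y box core stood in 7 of the 7 RT1 promoters shown, and in 7.06% of 33465 rat promoters searched on both strands. Its first base lay 45 to 109 bases before the start site. The X box letters stood in 5 of the 8 members' promoters and in 10.2% of all. X followed by Y on 1 strand, with their first bases 20 to 40 apart, was found in 14 promoters of the 33465 (0.0418%), 5 of them those of RT1-Da, RT1-Db1, RT1-Bb, RT1-DMa and RT1-DOb. The neighbouring class II gene RT1-Db2, which is not analysed here, was another. In the 5 members the first bases were 25 to 28 apart. The CCAAT box on either strand stood in all 8 members' promoters, and in 37.5% of all promoters.

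Most of the 10 class II genes rose in MBP-EAE. Of the 10 members, 9 were higher and 0 lower (limma, adjusted p under 0.05), where 11.3% of all 8793 clusters were higher and 14.6% lower. The same 9 members were at least 2-fold higher, as were 4.81% of all clusters, and 6 were at least 4-fold higher, as were 1.69%. The median difference of the 10 members was 3.0 on the log2 scale, beside −0.10 over all clusters. RT1-DOa was the member that was not called. In each of the other 9, every MBP-EAE rat stood above every healthy control rat, which was so for 12% of all clusters. Cord RNA came from whole tissue, so that more cells with class II and more class II RNA in each cell cannot be told apart.

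**Figure D1:**
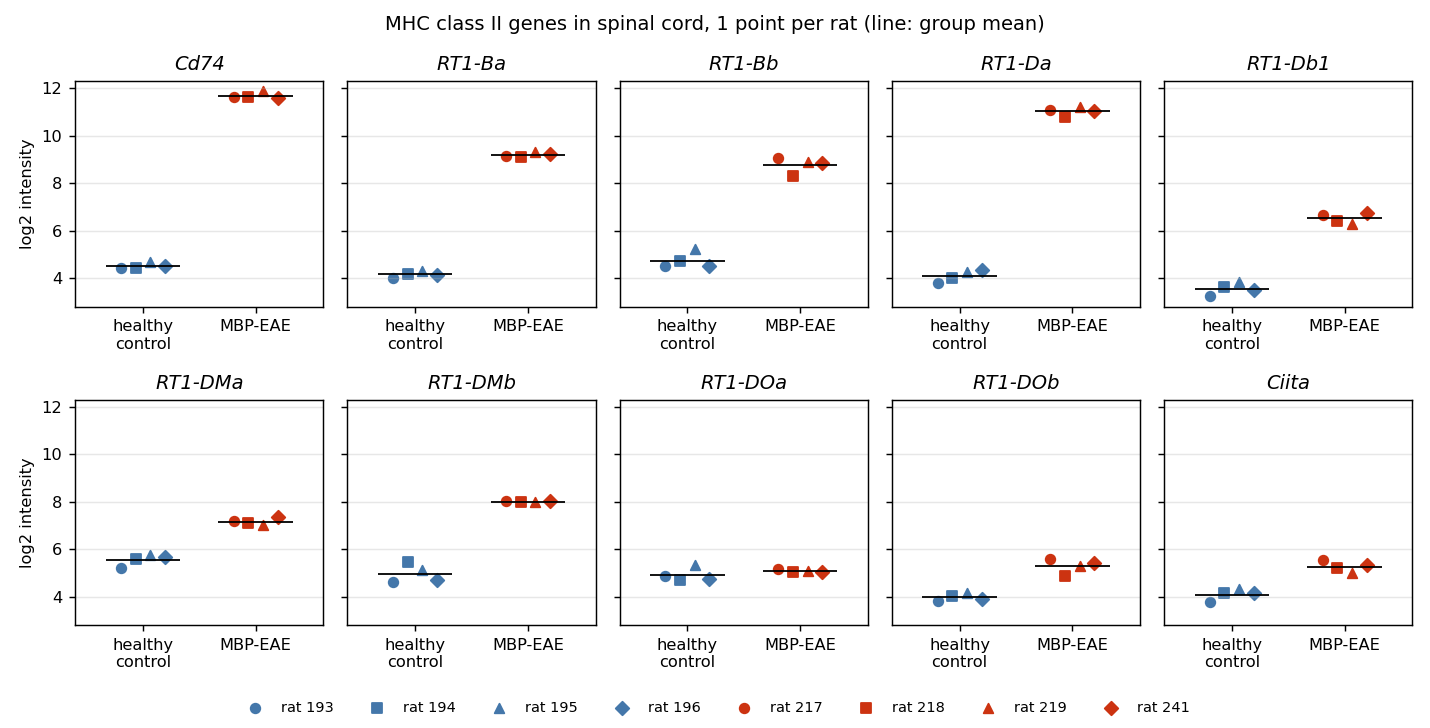
Deposited log2 intensity (vertical axis) of the 10 MHC class II genes in each healthy control rat (blue) and each MBP-EAE rat (red), with a line at the group mean. The groups are apart in 9 panels and overlap for RT1-DOa, whose healthy control rat 195 (5.34) was above all 4 MBP-EAE rats (5.07 to 5.18).

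The invariant chain had the largest difference of all 8793 clusters. Cd74 read 4.43, 4.45, 4.69 and 4.53 on the log2 scale in healthy control rats 193, 194, 195 and 196, and 11.65, 11.62, 11.88 and 11.58 in MBP-EAE rats 217, 218, 219 and 241. Group means were 4.52 ± 0.12 and 11.68 ± 0.13 (SD, n = 4 in each group), and a gap of 6.89 lay between the highest control and the lowest MBP-EAE rat. All 4 healthy values were below the median of their array. The difference was 7.16 (SE 0.11, 95% interval 6.92 to 7.39), which is 143-fold (121 to 168), with an adjusted p of 1.25e-10 in limma. Over all alternative settings it lay between 7.09 and 7.29.

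Among the classical chains, RT1-Da came next to Cd74 in the order of all clusters. The alpha chain of RT1-D read 3.82, 4.01, 4.29 and 4.36 in the healthy control rats, in the order given above, and 11.11, 10.79, 11.21 and 11.05 in the MBP-EAE rats. The rise was 6.92 (SE 0.14) or 121-fold (96.7 to 151), with a limma adjusted p of 9.46e-10. In 2 of the 4 healthy control rats RT1-Da lay below the lower quartile of the array.

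RT1-Db1, the beta chain that pairs with RT1-Da, rose by less. It read 3.25, 3.66, 3.84 and 3.50 in the healthy control rats, each below the lower quartile of its array (3.87 to 4.28 on these 4 arrays). In MBP-EAE it read 6.69, 6.41, 6.31 and 6.75, so that the highest control (rat 195) and the lowest MBP-EAE rat (219) were 2.46 apart. The difference was 2.98 (SE 0.15), or 7.87-fold (6.23 to 9.95), with a limma adjusted p of 3.33e-07 and rank 70 among all clusters. The class II gene RT1-Db2 lies near it on the chromosome and was not measured, and how far its RNA reads on the RT1-Db1 probes is not known.

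RT1-Ba and RT1-Bb, the alpha and beta chains of RT1-B, both rose more than 10-fold. RT1-Ba was tightly grouped, with 4.00, 4.18, 4.33 and 4.16 in the healthy control rats and 9.15, 9.10, 9.31 and 9.23 in the MBP-EAE rats. Its difference was 5.03 (SE 0.10), or 32.6-fold (27.9 to 38.2, limma adjusted p 9.46e-10, rank 12). RT1-Bb was more spread, with 4.53, 4.72, 5.23 and 4.52 in the healthy control rats and 9.06, 8.32, 8.89 and 8.84 in the MBP-EAE rats. Rat 195 stood high among controls and rat 218 low among MBP-EAE rats, and the SD was 0.33 in controls and 0.32 in MBP-EAE. The difference of RT1-Bb was 4.03 (SE 0.20), or 16.3-fold (12 to 22.1, limma adjusted p 2.43e-07, rank 27).

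Both chains of RT1-DM, the peptide exchanger, were higher in MBP-EAE. RT1-DMb read 4.62, 5.48, 5.13 and 4.71 in the healthy control rats and 8.02, 7.99, 8.01 and 8.04 in the MBP-EAE rats. The 4 MBP-EAE values thus lay within a narrow band (SD 0.02) while the healthy values were spread (SD 0.40), a ratio of SDs of 0.052. The difference was 3.03 (SE 0.17), or 8.17-fold (6.24 to 10.7), with a limma adjusted p of 8.47e-07. RT1-DMa read 5.21, 5.58, 5.77 and 5.70 in the healthy control rats and 7.20, 7.11, 7.03 and 7.36 in the MBP-EAE rats. It was 3.05-fold higher (2.47 to 3.77, limma adjusted p 1.64e-05), and none of its healthy values was below the median of its array.

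The 2 chains of RT1-DO, the restrainer of DM, did not give the same result. RT1-DOb read 3.84, 4.06, 4.15 and 3.92 in the healthy control rats and 5.61, 4.89, 5.29 and 5.43 in the MBP-EAE rats, so that rat 218 was the lowest of the diseased rats and still 0.74 above the highest control. It was 2.48-fold higher (1.96 to 3.15, limma adjusted p 1.71e-04). In 3 healthy control rats the value lay below the lower quartile of the array. RT1-DOa read 4.89, 4.71, 5.34 and 4.77 in the healthy control rats and 5.18, 5.07, 5.09 and 5.07 in the MBP-EAE rats.

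For RT1-DOa healthy control rat 195 was above every MBP-EAE rat, and the other 3 controls were below every MBP-EAE rat. The difference was 0.18 (SE 0.14, 95% interval −0.13 to 0.49), or 1.13-fold (0.915 to 1.4), with a limma adjusted p of 0.386 and an exact permutation p of 0.229 (two-sided, 70 arrangements). The interval leaves room for a rise of up to 1.4-fold. Without rat 195 the difference was 0.32 with an adjusted p of 0.0256, and with array weights, by which limma counts noisier arrays for less, it was 0.35 with an adjusted p of 0.0115. Over all alternative settings the adjusted p ranged from 0.0115 to 0.67. The call for RT1-DOa thus changed with 1 rat, and rat 195 was the highest control in 8 of the 10 members, beside 46% of all clusters.

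Ciita, the transactivator of the family, rose by far less than the classical chains. It read 3.78, 4.15, 4.33 and 4.15 in the healthy control rats and 5.57, 5.21, 5.01 and 5.33 in the MBP-EAE rats, 0.68 apart at the nearest values. Means were 4.10 ± 0.23 and 5.28 ± 0.23 (SD, n = 4 in each group). The difference was 1.18 (SE 0.15), or 2.27-fold (1.8 to 2.86), with a limma adjusted p of 3.07e-04 and rank 346 among all clusters. Ciita lay below the median of the array in all 4 healthy control rats and in 1 MBP-EAE rat. In 1 of these controls it was also below the lower quartile. The part of dim signals in its smaller rise was not tested.

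**Figure D2:**
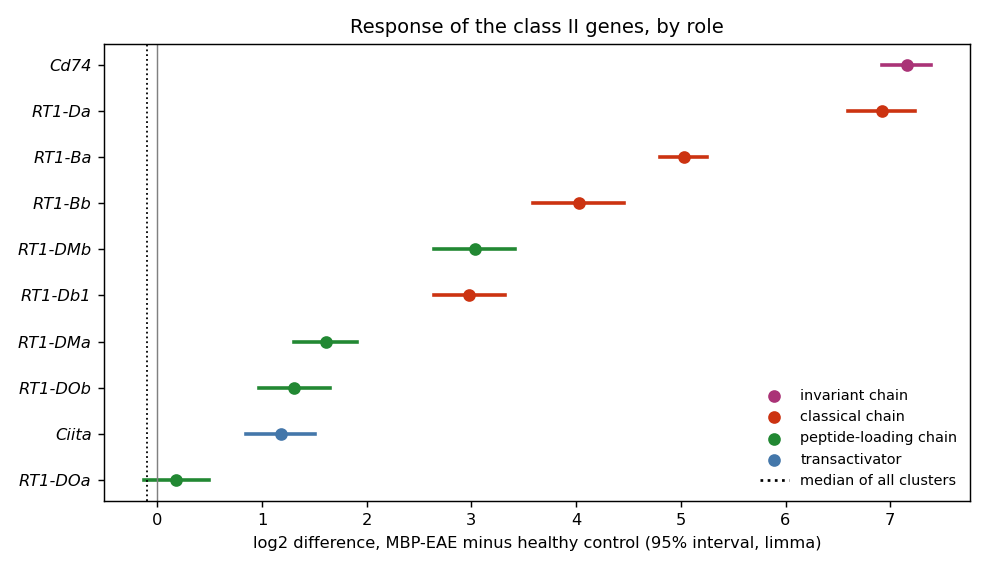
Log2 difference between MBP-EAE and healthy control (horizontal axis) for each class II gene, coloured by role, with the 95% interval from limma. Differences run from 7.16 for Cd74 to 0.18 for RT1-DOa, whose interval is the only one to cross 0, and the dotted line marks the median of all clusters (−0.10).

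Rats did not hold the same place in every gene. Among controls, rat 193 was the lowest in 8 members and rat 195 the highest in 8, and over all clusters these rats were the lowest in 38.9% and the highest in 46%. The array of rat 195 also had the narrowest interquartile range, 2.23 beside 2.61 to 2.93 on the other 3 control arrays. In MBP-EAE, rat 218 was the lowest in 5 members and the highest in 0, beside 25.9% and 34.4% of all clusters. Rat 217 was the highest in 4 members, beside 15.9% of all clusters. The SD was smaller in MBP-EAE than in healthy controls for 7 of the 10 members. The share of all clusters for which this holds is not given here, so that the count may not be particular to the members. Exact permutation tests gave 0.0286 for each of the 9 members without overlap, which is the smallest p that 4 rats against 4 can give.

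How far 2 members moved together was measured within each rat, as the log2 value of one minus that of the other. Signals near the background can shorten a rise, so that a change in this value is one of the array signals. In total 9 such differences were computed. For RT1-Da minus RT1-Db1 the values were 0.57, 0.35, 0.45 and 0.86 in the healthy control rats and 4.41, 4.38, 4.90 and 4.30 in the MBP-EAE rats. The alpha chain of RT1-D thus rose by 3.94 more than the beta chain (SE 0.18, 95% interval 3.51 to 4.37), a ratio of folds of 15.3.

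The chains of RT1-B were closer to each other. RT1-Ba minus RT1-Bb was −0.52, −0.55, −0.90 and −0.36 in the healthy control rats and 0.09, 0.78, 0.42 and 0.39 in the MBP-EAE rats. The alpha chain rose by 1.0 more (SE 0.18), a ratio of folds of 2. In RT1-DM the beta chain rose more, with RT1-DMa minus RT1-DMb at 0.60, 0.10, 0.64 and 0.99 in the healthy control rats and −0.82, −0.88, −0.98 and −0.68 in the MBP-EAE rats. That difference was −1.42 (SE 0.19), a ratio of folds of 2.68.

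In RT1-DO it was again the beta chain. RT1-DOa minus RT1-DOb was 1.04, 0.65, 1.19 and 0.85 in the healthy control rats and −0.43, 0.18, −0.20 and −0.36 in the MBP-EAE rats, a difference of −1.13 (SE 0.18) and a ratio of folds of 2.19. Rat 218, in which RT1-DOb was lowest, had the smallest gap of the MBP-EAE rats. In all 4 dimers the groups did not overlap, and the exact permutation p was 0.0286 (two-sided, the smallest possible), also after adjustment over the 9 differences. Healthy values lay below the lower quartile of the array in 4 rats for RT1-Db1, 3 for RT1-DOb and 2 for RT1-Da, and the part of dim signals in the unequal responses was not tested.

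Between roles, the mean of the 4 classical chains rose by 4.74, that of the 2 RT1-DM chains by 2.32 and that of the 2 RT1-DO chains by 0.75. Cd74 minus the classical mean was 0.27 to 0.53 in the healthy control rats and 2.61 to 2.97 in the MBP-EAE rats, so that the invariant chain rose by 2.42 more (SE 0.11). Ciita minus the classical mean was −0.12 to 0.01 in controls and −3.92 to −3.43 in MBP-EAE, a smaller rise by 3.56 on the log2 scale, or a ratio of folds of 11.8. RT1-DM trailed the classical chains with a difference of −2.42 (SE 0.11), and RT1-DO with a difference of −3.99 (SE 0.06). RT1-DM in turn rose by 1.57 more than RT1-DO (SE 0.15). For each of these 5 differences the groups did not overlap, and all 9 kept their direction when each rat was left out in turn and under each way of normalizing between arrays.

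**Figure D3:**
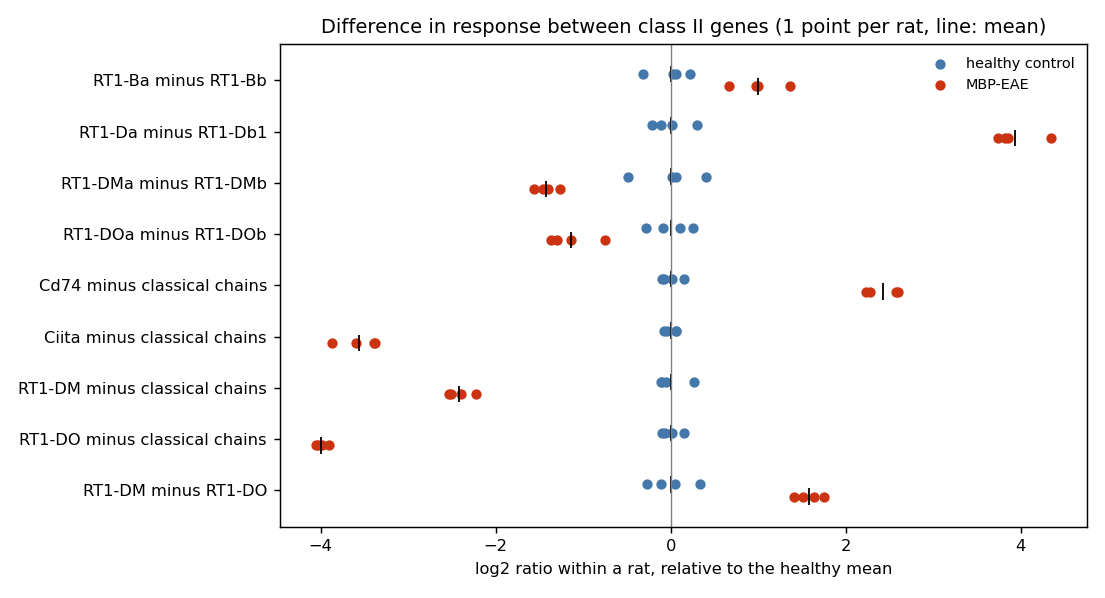
Within-rat log2 ratio of 2 class II genes or roles, relative to the healthy control mean (horizontal axis), with 1 point for each rat and a line at each group mean. MBP-EAE rats (red) are apart from healthy control rats (blue) in all 9 rows, from −3.99 for RT1-DO minus the classical chains to 3.94 for RT1-Da minus RT1-Db1.

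By size of difference the members ran Cd74, RT1-Da, RT1-Ba, RT1-Bb, RT1-DMb, RT1-Db1, RT1-DMa, RT1-DOb, Ciita and RT1-DOa. This order was read after the values were seen. Of its 9 steps, 5 were larger than the spread between rats, in that the within-rat differences of the groups did not overlap. Cd74 and RT1-Da did not differ beyond their spread (0.24, SE 0.11), nor did RT1-DMb and RT1-Db1 (0.05, SE 0.17), RT1-DMa and RT1-DOb (0.30, SE 0.16) or RT1-DOb and Ciita (0.13, SE 0.14). The step from RT1-Da to RT1-Ba was 1.89 (SE 0.10) and the step from RT1-Db1 to RT1-DMa was 1.37 (SE 0.08).

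The 8 RT1 members lie in 1 stretch of chromosome 20, and Cd74 and Ciita lie elsewhere. RefSeq (assembly GRCr8) lists 17 genes from RT1-Da to RT1-Ha, of which 14 were measured. Of these 14, 11 were higher (7 of the 8 members and 4 of the 6 others), 0 were lower and 3 were not called, where 11.3% of all clusters were higher. Between RT1-DOb and RT1-DMb lie 4 genes of the class I pathway, all higher. They are the peptide transporter subunits Tap2 (1.0, SE 0.13) and Tap1 (2.09, SE 0.08) and the immunoproteasome subunits Psmb8 (1.94, SE 0.14) and Psmb9 (2.99, SE 0.10).

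At the far end of the stretch stand the 3 genes that were not called. Brd2, a chromatin reader that is no MHC gene, read 7.32 to 7.63 in the healthy control rats and 7.50 to 7.78 in the MBP-EAE rats (0.19, limma adjusted p 0.229). RT1-DOa, described above, lies next to it. RT1-Ha, the last gene, is an RT1 gene outside the members. It read 3.60 to 3.78 in controls and 3.28 to 3.59 in MBP-EAE, so that all MBP-EAE rats were lower, as in 17.3% of all clusters. Its difference of −0.24 did not pass the test (limma adjusted p 0.108). This stretch was looked at after the members' values were known.

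**Figure D4:**
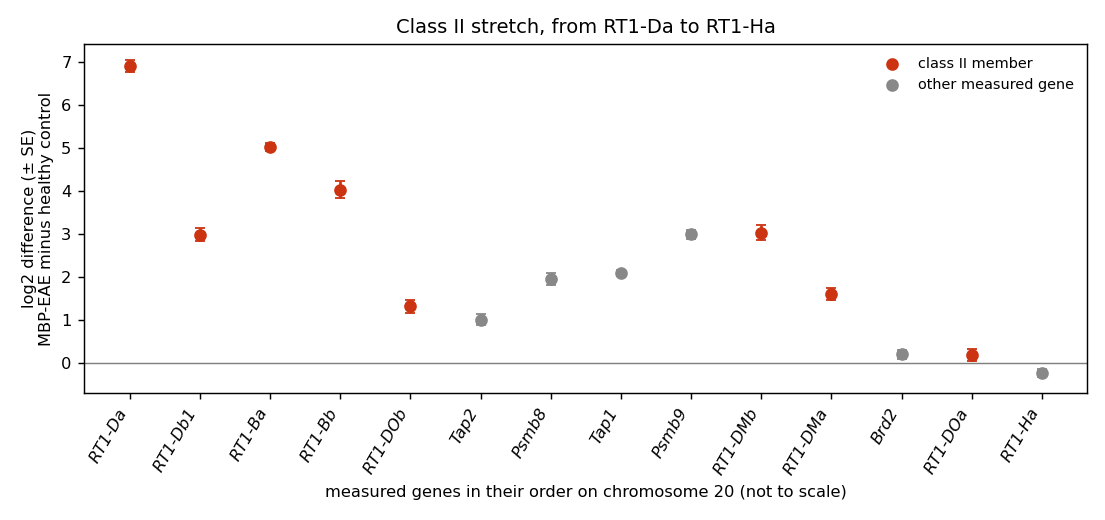
Log2 difference between MBP-EAE and healthy control (vertical axis, points with SE bars) for the 14 measured genes from RT1-Da to RT1-Ha, in their order on chromosome 20 and not to scale. Class II members are red and other genes grey, and the last 3 genes (0.19, 0.18 and −0.24) are those that were not called.

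Genes with the course most like Cd74 were sought as the smallest root mean square difference over the 8 arrays, after each gene's healthy mean had been subtracted. They were the chemokines Cxcl13 (0.28) and Cxcl9 (0.32), the siderophore-binding protein Lcn2 (0.67), the inhibitory leukocyte receptor Lilrb4 (0.91) and the chemokine Cxcl11 (1.04). The first of them was 112-fold higher and the second 116-fold higher. Nearest to Ciita were the urokinase Plau (0.10), the membrane protease St14 (0.11), Traf3ip3 (0.12), the FK506-binding protein Fkbp5 (0.12) and the amino acid transporter Slc7a7 (0.12), with rises from 2.19-fold to 2.46-fold. As the measure starts from the healthy mean, it mostly finds genes with a rise of the same size.

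Endosomal enzymes that trim antigen and the invariant chain rose as well. Of 12 genes listed, among them the cathepsin inhibitor Cst3, 9 were measured, 8 were higher and 0 lower, with a median of 1.48. Over all clusters 11.3% were higher and 14.6% lower, the shares beside which the counts of this and the later lists stand. The largest rise was that of the dipeptidyl peptidase Ctsc (4.31, SE 0.20), followed by the cathepsin Ctsh (2.38, SE 0.17), the asparagine endopeptidase Lgmn (1.86, SE 0.23) and Ctsb (1.62, SE 0.14). Ctss, the cathepsin best known for cutting the invariant chain, rose by 1.48 from a healthy range of 9.79 to 10.98 to a range of 11.76 to 12.10. Cst3 was 1 of the 8 (0.96, limma adjusted p 0.00789), although its groups overlapped. Ctsk was at 0.26 (limma adjusted p 0.185).

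Of 10 listed DNA-binding proteins and coactivators with which Ciita works, 8 were measured, 0 were higher and 1 was lower in limma, with a median of 0.07. These counts are near the shares over all clusters, of which 11.3% were higher and 14.6% lower. The lower one was Nfyb, a subunit of NF-Y, at 6.32 to 6.64 in the healthy control rats and 5.95 to 6.07 in the MBP-EAE rats (−0.50, SE 0.10, limma adjusted p 0.00443). Nfya and Nfyc, its partners in NF-Y, were at 0.19 and 0.05 and were not called, and Rfxank, a subunit of RFX, was at 0.08. The coactivator Crebbp was above all controls in every MBP-EAE rat but did not pass the test (0.40, limma adjusted p 0.0577). At an unadjusted p under 0.05, 1 gene of the list was higher, and over the alternative settings the count was 0 to 2.

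Genes of interferon gamma signalling rose, among them regulators upstream of Ciita. Of 11 listed, 8 were measured, 6 were higher and 0 lower, with a median of 0.87. Irf1, a transcription factor that acts on a Ciita promoter, read 3.83 to 4.12 in the healthy control rats and 6.87 to 7.13 in the MBP-EAE rats (3.05, SE 0.10). Irf8 rose by 2.24 (SE 0.09), the receptor chain Ifngr1 by 1.94 (SE 0.14) and the kinase Jak2 by 0.89 (SE 0.10). Ifng itself read 3.18 to 3.83 in controls and 4.08 to 4.45 in MBP-EAE (0.85, limma adjusted p 0.00225). Usf1 (−0.05) and the inhibitor Socs1 (−0.23) were not called.

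Beyond presentation, Cd74 at the cell surface is the receptor for Mif and Ddt, with Cd44, Cxcr2 and Cxcr4 as its partners. All 5 were measured. The co-receptors Cd44 (1.47, SE 0.12) and Cxcr4 (0.78, SE 0.14) and the ligand Ddt (0.74, SE 0.19) were higher. Mif read 9.50 to 9.72 in the healthy control rats and 9.38 to 9.72 in the MBP-EAE rats (−0.07, limma adjusted p 0.67), and Cxcr2 was at −0.29 (limma adjusted p 0.107). In the list of class II turnover and repression 2 of 7 were measured. The receptor chain Il10ra was higher (1.19, SE 0.13) and Il10 was at 0.31 (limma adjusted p 0.141).

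On the presenting side the costimulatory ligands Cd86 (3.36, SE 0.11) and Cd80 (2.11, SE 0.17) rose, and they were the measured 2 of 6 listed. On the T cell side 7 of 11 were measured, 5 were higher and 0 lower, with a median of 0.61. Cd4, the co-receptor for class II, which rat macrophages also carry, rose by 3.56 (SE 0.15). Cd3d of the T cell receptor complex rose by 1.98 (SE 0.18) and the costimulatory receptor Cd28 by 1.28 (SE 0.16). Ctla4 and Cd40lg were both at 0.61 (limma adjusted p 0.0182 and 0.0144), and Lag3, which also binds class II, was at 0.38 (limma adjusted p 0.117).

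For comparison, 7 of 20 listed genes of the class I pathway had a cluster with their symbol alone. All 7 were higher, with a median of 1.0. Beside the 4 genes on the class II stretch these were the light chain B2m (0.59, SE 0.12), the peptidase Erap1 (0.91, SE 0.10) and the chain RT1-M3-1 (0.81, SE 0.10). B2m read 11.66 to 12.04 in the healthy control rats, so that its rise started from a high value, while Psmb9 read 3.76 to 4.05. The other listed genes are left out of this count and median, although some may share a cluster with other genes. Among them, the paper reports RT1-A1 as up-regulated. Over the alternative settings 7 to 9 genes of the list were called higher. The difference between the class I and class II lists was not tested.

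**Figure D5:**
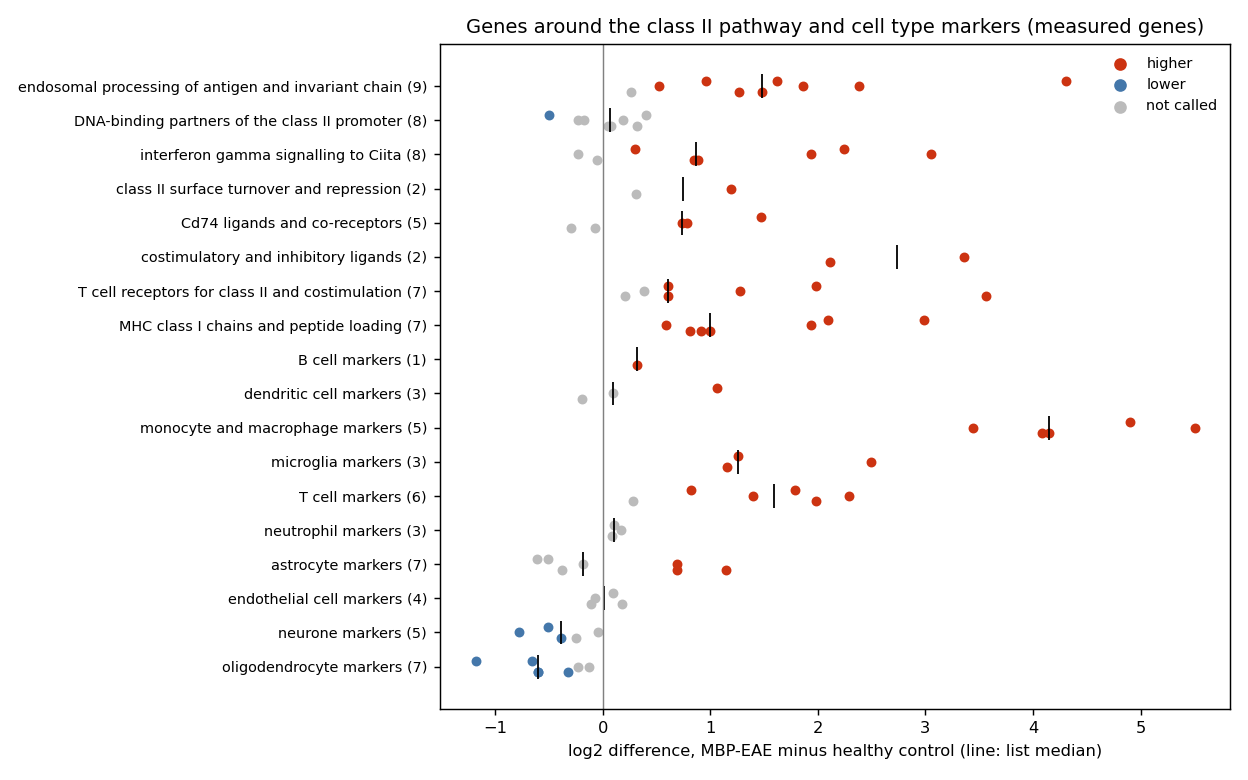
Log2 difference between MBP-EAE and healthy control (horizontal axis) for each measured gene of 8 pathway lists and 10 lists of cell type markers, with the number measured in brackets and a line at the list median. Red points were higher, blue points lower and grey points not called in limma, and the median is highest for monocyte and macrophage markers (4.15) and lowest for oligodendrocyte markers (−0.60).

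Markers of cells that can carry class II moved in the same samples. All 5 measured markers of monocytes and macrophages (of 10 listed) were higher, with a median of 4.15. They were led by the phagocyte oxidase subunit Cybb (5.50), the chemokine receptor Ccr2 (4.90) and the lysozyme Lyz2 (4.15), and the mean level of the list was 5.00 to 5.32 in the healthy control rats and 9.39 to 9.77 in the MBP-EAE rats. All 3 measured markers of microglia (of 10 listed) were higher, with a mean level of 6.24 to 6.79 in controls and 7.62 to 8.39 in MBP-EAE. Cx3cr1 rose by 2.49 and P2ry12 by 1.16. Selplg read 3.17 to 4.05 in controls and 3.70 to 5.63 in MBP-EAE, with overlap between the groups (1.26, limma adjusted p 0.0403). Over the alternative settings 2 to 3 microglia markers were called higher. Whether the rise of these 3 genes came from microglia or from other cells of the cord was not tested.

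Of the other presenting cells little was measured. For B cells only Cd79b of 8 listed markers was measured, at 4.17 to 4.44 in the healthy control rats and 4.52 to 4.64 in the MBP-EAE rats (0.32, limma adjusted p 0.0357), and it was not called when any rat other than 195 was left out. For dendritic cells 3 of 9 were measured. Clec10a was higher (1.06), while Ccr7 (0.10) and Batf3 (−0.19) were not called, and the mean level of the list was 4.63 to 5.18 in controls and 5.09 to 5.39 in MBP-EAE. T cell markers were higher in 5 of 6 measured (of 10 listed), led by Cd8a (2.29), Cd3d (1.98) and Cd8b (1.79), with a mean level of 3.71 to 4.20 in controls and 5.25 to 5.47 in MBP-EAE. Cd8a is also known on natural killer cells and some macrophages of the rat.

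Neutrophil markers were higher in 0 of 3 measured (of 8 listed), and S100a8 was at 0.09, S100a9 at 0.17 and Mmp8 at 0.11. Endothelial markers were higher in 0 of 4 (of 8 listed), with Cldn5 at 0.18. In both lists 0 genes were called at an unadjusted p under 0.05 in limma. With so few genes measured, 0 called is near the shares over all clusters (11.3% higher, 14.6% lower). Astrocyte markers were higher in 3 of 7 (of 9 listed), namely Slc1a3 (1.15), Gfap (0.69) and Gja1 (0.69), and the median of the list was −0.18. Gjb6 (−0.61), Slc1a2 (−0.51), S100b (−0.38) and Aqp4 (−0.18) were not called. At an unadjusted p under 0.05 in limma, 3 astrocyte markers were higher and 3 lower. Neurone markers were lower in 3 of 5 (of 8 listed), namely Slc5a7 (−0.78), Nefl (−0.51) and Nefm (−0.39). Oligodendrocyte markers were lower in 5 of 7 (of 8 listed), led by Ugt8 (−1.18) and Mag (−0.66) with Mbp and Ermn (both −0.60). With neurone markers at a mean level of 10.27 to 10.95 and oligodendrocyte markers at 9.41 to 10.27 over the 8 arrays, markers of nervous tissue were present, and genes particular to spinal cord were not examined. The part of each cell type in the class II values was not tested.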

How the data were processed

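Total RNA of whole spinal cord from 4 healthy control rats and 4 rats with MBP-EAE was hybridised to exon arrays, 1 array for each rat. Per the labels and the paper's methods, the authors used RMA in Partek with a correction for probe GC content, put the arrays through quantile normalization and took the mean of a gene's core probe sets. They deposited log2 values of 8793 transcript clusters, and their processing notes name Affymetrix Expression Console and the build rn4. The batch of each array was not given in the sources used here and was not modelled. The paper states that its analysis of variance looked at batches and found no significant effect of them. Samples were grouped by their labels.

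No further normalization was applied. The difference between MBP-EAE and healthy control was estimated for every cluster with lmFit and eBayes of limma 3.58.1 (R 4.3.3), without covariates, with Benjamini-Hochberg adjustment over all 8793 clusters and a threshold of 0.05. By the platform table, 1 gene symbol stood for 7603 clusters, 409 had several and 781 were not listed. A gene was taken as measured only if a cluster carried its symbol alone. Differences within a rat were compared by a two-sided exact permutation test over 70 arrangements. The fit was tested on simulated data. Few arrays limit the precision, and probe levels were not compared between genes. The arrays were designed on rn4, a Brown Norway assembly, and what sequence differences of the Lewis RT1 haplotype do to probe signals was not tested.

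All 10 members were named. From each pathway list the 4 called genes with the largest difference and those against the list's majority were named, from each cell type list the 3 largest, and the 5 genes nearest to Cd74 and to Ciita. Further genes in the text (such as Ctss, Ifng and Mif) were added after their values were seen. Members, lists and rules were chosen with earlier results of these data known. Alternatives were the methods' t-test, other variance priors and array weights in limma, 3 other normalizations between arrays, 2 filters on dim clusters, each rat left out in turn, and other ways to choose a gene's cluster. Promoter sequences and gene order came from RefSeq (GRCr8). Figures were drawn with matplotlib 3.10.9.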

Additional observations from a re-analysis of the deposited data

Results flagged for a closer look

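Among 38 groups of 4 rats examined (each member and each within-rat difference, in either group), 1 held a rat far from the other 3 by Dixon's criterion, which chance alone gives in about 1 of 20 groups. The value of RT1-DM minus the classical chains was 1.39 in healthy control rat 194, and 1.01, 1.02 and 1.07 in rats 193, 195 and 196. All 4 healthy values were above those of the MBP-EAE rats (−1.41 to −1.10). RT1-DMb was highest among controls in the same rat (5.48).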

How the results depend on the processing

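The 9 class II genes that were higher stayed higher in every alternative, and 9 to 10 members were called. The 9 within-rat differences kept their direction under the alternatives run for them, which were 3 normalizations, each rat left out and other ways to choose a gene's cluster. The last could change no member's values, as each member had exactly 1 cluster, also with clusters of several symbols counted. RT1-DOa was called with array weights (0.35) and when healthy control rat 195 was left out, and over the fits that left out a rat its difference was 0.11 to 0.32. In all, 2274 clusters were called, 3522 with array weights, and 1644 (without rat 196) to 2466 with a rat left out. Of the calls 43.7% were higher, and 58.1% after cyclic loess, which moved the median of all clusters from −0.10 to 0.00, where median centring gave −0.14 and a repeated quantile normalization −0.08.

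In the lists, DNA-binding partners had 2 higher and 2 lower with array weights, 2 higher after cyclic loess, and 1 higher after repeated quantile normalization and under either filter on dim clusters. With a rat left out they had 0 to 2 higher (2 without rat 193) and 1 to 2 lower (2 without rat 195). Of the Cd74 ligands and co-receptors, 1 was lower with array weights, after median centring and without rat 193, and 0 to 1 with a rat left out. Astrocyte markers had 3 lower with array weights, 1 after repeated quantile normalization and under either filter, and 0 to 3 with a rat left out (3 without rat 195, 1 without rat 219). With array weights 1 endothelial marker was higher. Without clusters dim in both groups, 3 T cell receptors and 0 B cell markers were higher, and B cell markers had 0 to 1 with a rat left out. The cause of these changes was not tested. Both filters kept all 10 members. No paired analysis was possible because rat numbers are not shared between the groups and the litter of each rat is not given. Healthy values of RT1-Db1 lay below the lower quartile of all 4 arrays, so that its fold rests on a dim level.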
